A study of Mus musculus with 13 samples.

Results

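The genes described here encode the nuclear subunits of respiratory complexes II to V and cytochrome c, measured as RNA in sorted mouse haematopoietic stem cells (HSCs). Members were taken by symbol: Sdha, Sdhb, Sdhc, Sdhd, Cyc1, Cycs, and every symbol that starts with Uqcr, with Cox followed by a digit from 4 to 8 and a letter, or with Atp5 and a letter. Pseudogene symbols and Atp5sl were left out, and 10 or more counts in at least 3 libraries were required. The count tables list 43280 symbols. The names fitted 48 of these, 43 passed the count rule, and all 43 were among the 17125 genes tested. Complex II had 4 members, complex III 9, cytochrome c 1, complex IV 13 and complex V 16. The other 5 symbols were tissue isoforms with few counts: Cox7a1 (48 counts over all libraries), Cox6a2 (31), Cox8c (23), Cox7b2 (17) and Cox8b (2). A symbol rule also takes in Cox7a2l, a factor of respiratory supercomplexes, and Atp5s, a coupling factor. Neither is a core subunit of its complex. The same holds for the other complex IV members, which lie around a core encoded in mitochondrial DNA.

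The HSCs came from untreated C57BL/6 Jrj mice of 8 to 12 weeks (young) or over 18 months (old). Kit-enriched marrow was sorted for live cells that lacked lineage markers and CD48 and carried Kit, Sca1 and CD150, and these were parted by mitochondrial membrane potential (MMP). Young MMP high HSCs had 4 libraries, and the groups Young MMP low, Old MMP high and Old MMP low had 3 each. How MMP was stained and where it was gated is not given in the sources used here. Nothing in the labels says that replicates are separate animals, so p-values measure the spread between these libraries only, which may be technical.

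The respiratory chain passes electrons from NADH and succinate to oxygen and pumps protons out of the mitochondrial matrix. Complexes III and IV pump protons, complex II feeds in electrons from succinate without pumping, and complex V (ATP synthase) lets protons back in to make ATP. The potential across the inner membrane, by which these cells were sorted, is the electrical part of that proton gradient. HSCs in the resting state are known for low respiration and a reliance on glycolysis. Complexes III, IV and V each join nuclear-encoded subunits to subunits encoded in mitochondrial DNA, while all subunits of complex II are nuclear. The 37 genes of mitochondrial DNA stood at 0 counts throughout, so only the nuclear subunits were seen.

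Library totals ran from 8537834 to 10574730 counts, and the members took 0.75% to 1.13% of them. Of 10 HSC marker genes, including those of the sort gate, all had counts in every group. RNA of mature cells was also present: the summed level of 12 granulocyte and monocyte markers ran from 1920 to 48600 CPM (counts after scaling libraries to equal size) across libraries. Young MMP high 4 held the lowest of these sums, and Ctsg, a granule protease, had 0 counts there. The summed level of 10 erythroid markers ran from 3840 to 42200 CPM, with both ends in Young MMP high. Young MMP low 1 stood apart in Malat1, an abundant nuclear RNA, with 1218 counts against 6055 to 17354 in the other libraries. With MMP, 4 of 10 HSC markers fell and 4 of 8 megakaryocyte markers rose at each age (edgeR, adjusted p under 0.05). The shares of all genes called were 0.993% in young and 3.66% in old HSCs. The young calls depended on the libraries fitted. A fit of the young groups only called 0 genes, and leaving out Young MMP low 3 gave 11 genes against 170 with all libraries. The summed megakaryocyte markers were 273 to 306 CPM in Young MMP low and 549 to 984 CPM in Young MMP high, and 367 to 501 CPM against 902 to 1560 CPM in the old groups. The part of these other genes in the members' values was not tested. In RNA from bulk samples, fewer cells of a type and less RNA per cell cannot be told apart.

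No member passed an adjusted p of 0.05 in any of the comparisons (edgeR quasi-likelihood test, Benjamini-Hochberg adjusted over all genes tested). The share of all genes that passed was 0.993% for MMP high against low in young HSCs, 3.66% in old HSCs, 0.175% for old against young in MMP low HSCs, 0.146% in MMP high HSCs and 0% for the interaction of age and MMP. At an unadjusted p under 0.05 there were 10, 7, 0, 4 and 0 members in that order, or 23.3%, 16.3%, 0%, 9.3% and 0% of them. The shares of all genes tested were 14.6%, 16.8%, 7.18%, 7.61% and 4.05%, so the count in old HSCs was near the background. DESeq2 called 0 members except in the old MMP comparison, where it called 4: Cyc1 (log2 fold change 0.47), Atp5b (0.48), Atp5o (0.41) and Cox7a2l (-0.57). Those 4 are 9.3% of the members, near the 9.42% of all genes that DESeq2 called there. Its shares of all genes were 4.94% for young MMP, 1.15% for MMP low age, 1.09% for MMP high age and 0.0117% for the interaction, over genes to which it gave an adjusted p. The median standard error (SE) of a member's log2 fold change was 0.22 to 0.23 in the 4 group comparisons, against 0.35 to 0.38 over all genes tested.

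Members together were a larger part of the counts in MMP high than in MMP low HSCs. Their share was 0.869% ± 0.138 (SD, n = 3) in Young MMP low and 1.07% ± 0.0417 (n = 4) in Young MMP high. It was 0.825% ± 0.039 (n = 3) in Old MMP low and 0.995% ± 0.0562 (n = 3) in Old MMP high. The old groups did not overlap (0.791% to 0.868% against 0.93% to 1.03%), and neither did the young groups (0.75% to 1.02% against 1.03% to 1.13%). A few abundant genes such as Atp5b and Atp5a1 weigh most in this share. It is a share of total counts, without the scaling applied to the CPM of members. By the mean log2 CPM over all members, the MMP groups overlapped at both ages. Young MMP low ran from 6.76 to 7.52 and Young MMP high from 7.32 to 7.55. Old MMP low ran from 6.95 to 7.23 and Old MMP high from 6.86 to 7.28. Counted gene by gene, 39 of 43 members had a fold change above 0 in the young MMP comparison, with a median log2 fold change of 0.375 (all genes tested: -0.012, 49.1% above 0). In the old MMP comparison 30 of 43 were above 0, with a median of 0.094 (all genes: -0.075, 44.9% above 0). In MMP high HSCs 38 of 43 members were below 0 for old against young, with a median of -0.321 (all genes: 0.001), and in MMP low HSCs 30 of 43 were below 0, with a median of -0.084 (all genes: 0.028). Of 82 cytosolic ribosomal protein genes, 73 were above 0 for young MMP (median 0.298) and 81 below 0 for MMP high age (-0.43). They differed from the members in old MMP (75 below 0) and MMP low age (72 above 0). Of 77 mitochondrial ribosomal protein genes, 57 were above 0 for young MMP and 52 for old MMP. For MMP low age 57 of them were below 0, and for MMP high age 67. The young MMP and MMP high age directions were thus not particular to the members. These comparisons share libraries, so their values are not independent of each other: Young MMP high enters both the young MMP and the MMP high age comparison.

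The members' medians moved with single libraries. Leaving out Young MMP low 2 gave a young MMP median of 0.177, and leaving out Young MMP low 1 gave 0.514. The old MMP median was 0.281 without Old MMP high 2, 0.265 without Old MMP low 1, 0.054 without Old MMP low 2, 0.053 without Old MMP high 1 and 0.011 without Old MMP low 3. In MMP low HSCs the age median turned to 0.206 without Young MMP low 1, and was -0.216 without Young MMP low 2 or without Old MMP low 1, -0.147 without Young MMP low 3, -0.037 without Old MMP low 2 and -0.021 without Old MMP low 3. The MMP high age median was -0.208 without Old MMP high 2. Library names fall into a set that starts with L and a set that starts with N, whose meaning the labels do not give. Over the mean log2 CPM of all members, MMP high exceeded MMP low in young HSCs by 0.33 in all libraries and by 0.49 within the N libraries, while within the L libraries (1 MMP low, 2 MMP high) the difference was -0.03. Old against young in MMP high HSCs was -0.31 in all libraries, -0.34 within N and -0.21 within L.

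**Figure D1:**
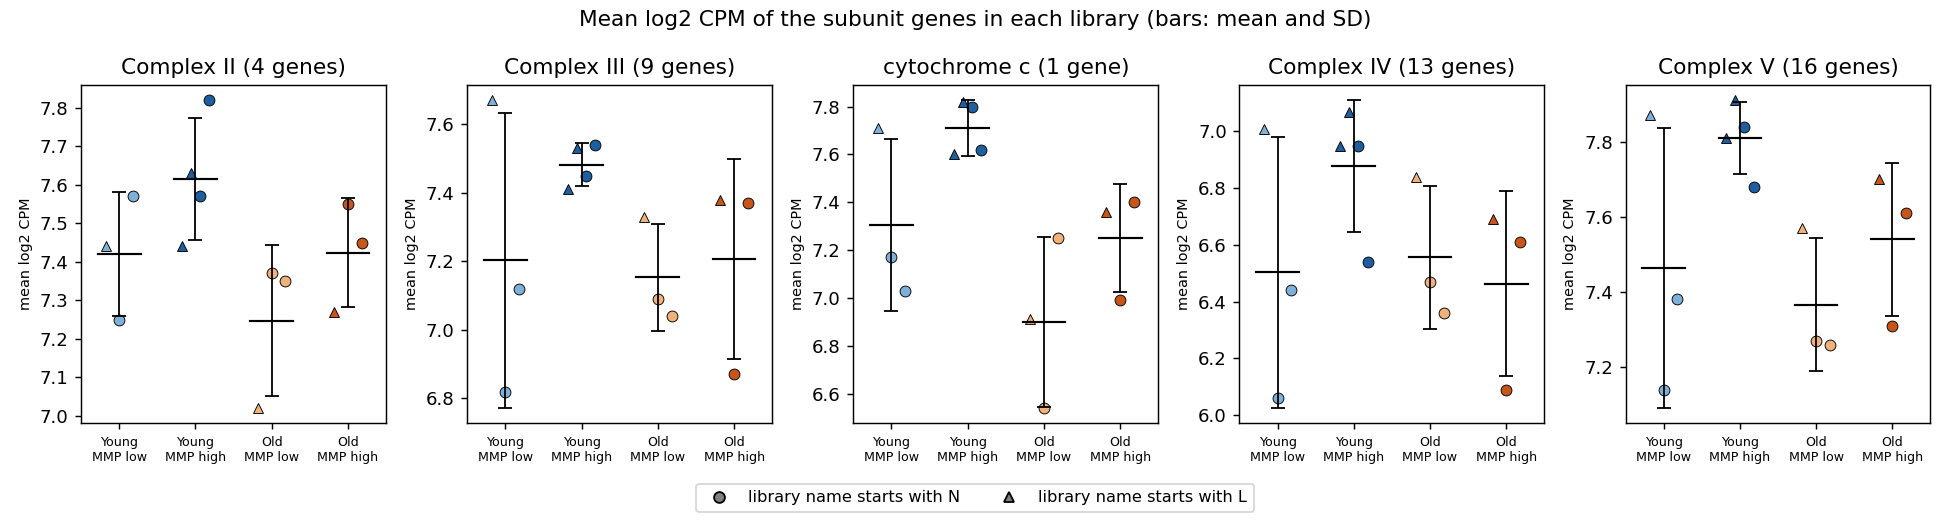
Each point is 1 library: the mean log2 CPM over the members of a complex (vertical axis, log2 scale that does not start at 0) in the 4 groups, with triangles for library names that start with L and circles for N, and bars for the group mean and SD. Young MMP high libraries lie close together for complexes III and V (SD 0.06 and 0.1), whereas in Young MMP low the library Young MMP low 1 lies above the other two for complexes III, IV, V and cytochrome c.

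Groups that do not overlap were counted for every gene. In the young MMP comparison, Uqcr10, Cyc1 and Atp5o were higher in all MMP high libraries (3 of 43; all genes tested 5.65%) and Cox7a2l was lower in all (1 of 43; all genes 6.49%). In the old MMP comparison 7 members were higher in all MMP high libraries (all genes 12.9%): Atp5b, Cyc1, Atp5o, Atp5a1, Atp5g2, Atp5g3 and Uqcrc1. Cox7a2l, Atp5s and Cox4i2 were lower in all of them (3 of 43; all genes 13.9%). These shares of the members, 6.98% and 16.3% higher, are near those of all genes. In MMP low HSCs, 0 members were higher in all old libraries (all genes 6.52%) and 2, Sdhd and Atp5o, were lower in all (all genes 5.63%). In MMP high HSCs, 0 members were higher in all old libraries (all genes 6.36%), and 10 of 43 (23.3%) were lower in all, against 5.1% of all genes. These were Atp5g1, Uqcrh, Cycs, Uqcrb, Sdhb, Atp5c1, Atp5o, Atp5f1, Atp5j and Uqcr11, and their fold changes ran from -0.19 (Atp5o) to -0.55 (Uqcrb) on the log2 scale.

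**Figure D2:**
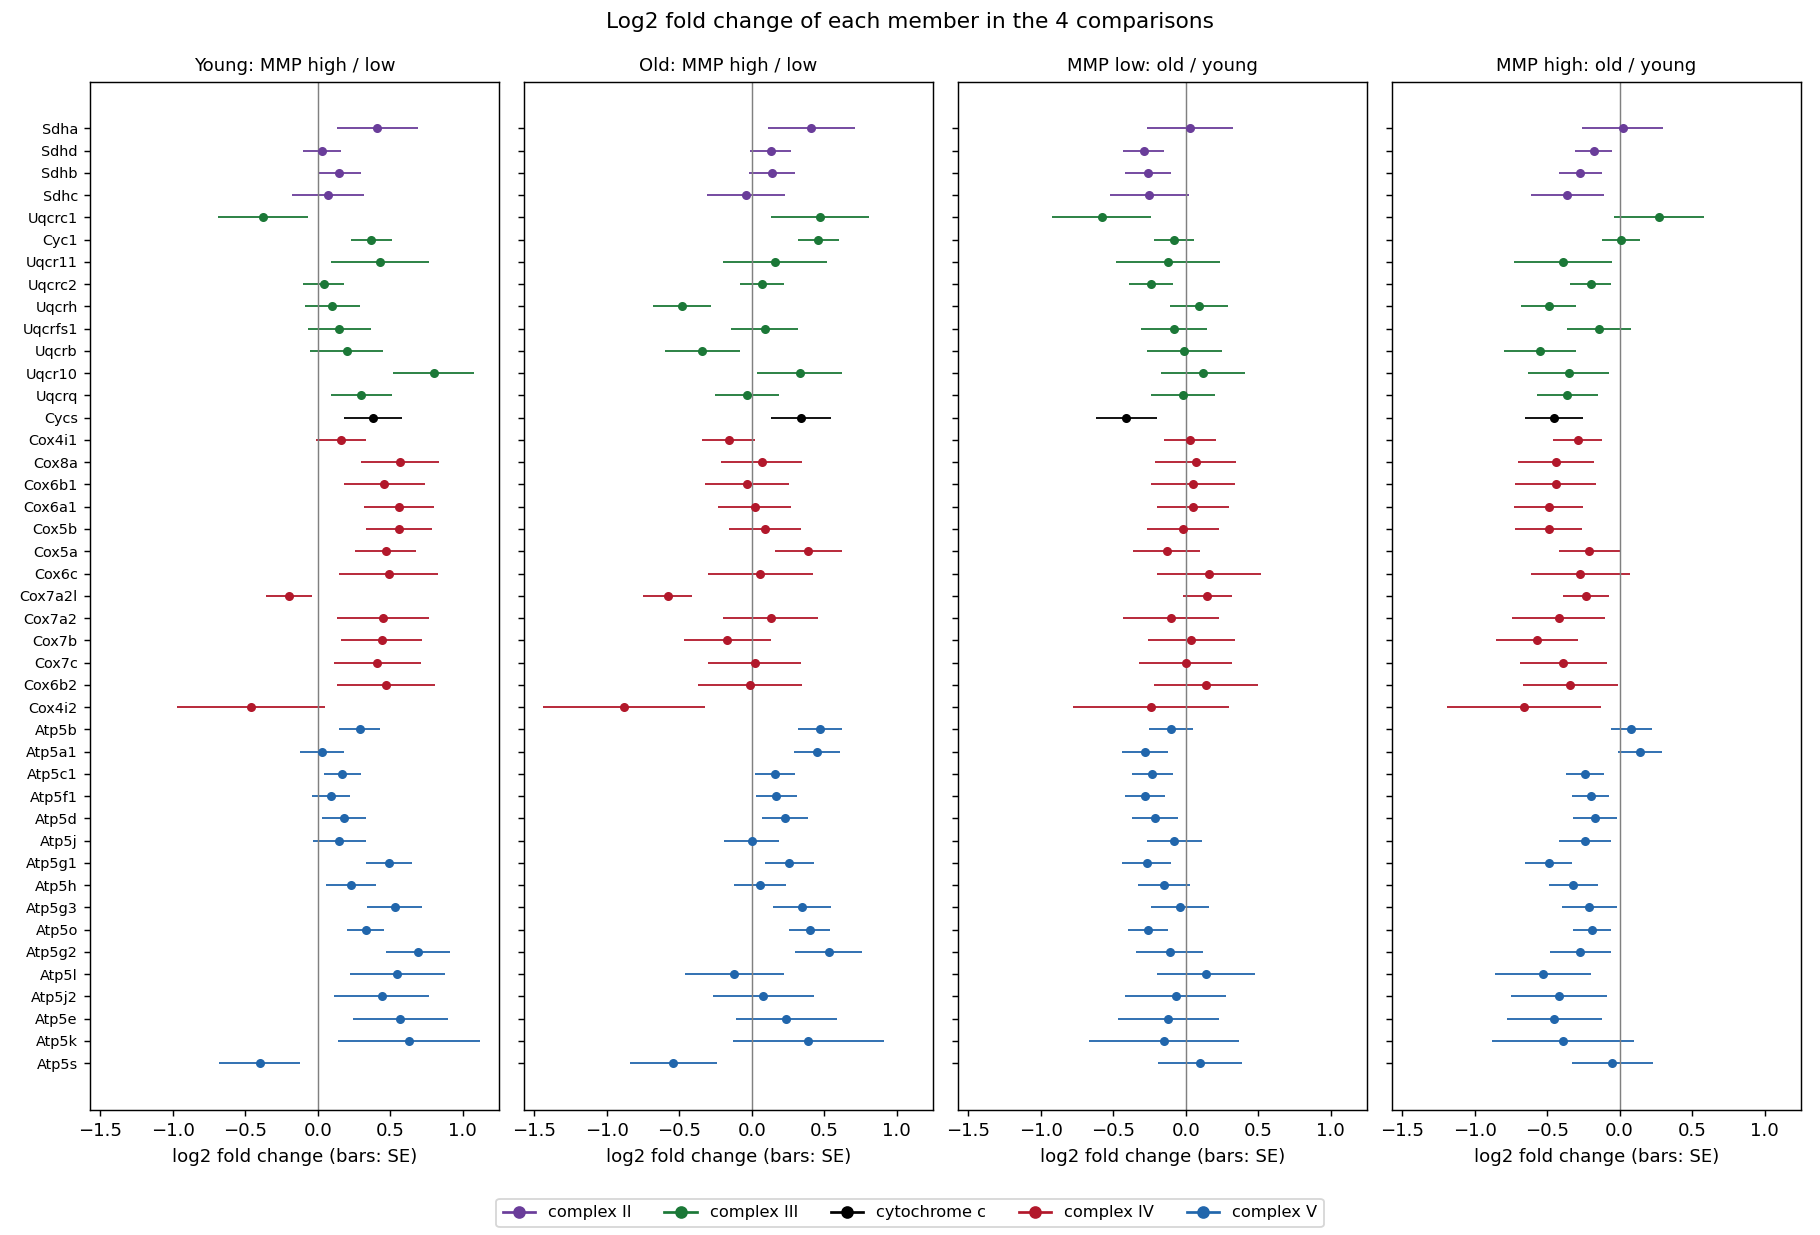
Log2 fold change (horizontal axis) of each of the 43 members (vertical axis, ordered by complex and then by level) in the 4 comparisons, with bars for 1 SE and colours for the complex. In young HSCs 39 points lie right of 0 for MMP high against low, and in MMP high HSCs 38 lie left of 0 for old against young; Cox7a2l, Cox4i2 and Atp5s lie left of 0 in both MMP comparisons.

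Nuclear respiratory factor 1 (NRF1) is a transcription factor known for binding promoters of respiratory chain genes. RefSeq promoters (250 bases before to 50 after each gene's start, GRCm38.p6) were at hand for 34 members, with 37 promoters; Sdhc, Uqcrc2, Uqcrb, Uqcrq, Cyc1, Cox4i1, Cox4i2, Cox6c and Atp5a1 were not among them. The letters GCATGCGC, searched on both strands, were in 21.6% of the member promoters (8 of 37) and in 2.71% of 32851 promoters of the same length. These 8 stretches of 30 bases are shown because the members that share the letters come from complexes II, III, IV and V and cytochrome c. Each is written 5′ to 3′ on the strand of its gene, with the matching letters in capitals, so that GCGCATGCGC holds the letters on both strands.
Sdhb, chr4:140961206-140961235, plus strand: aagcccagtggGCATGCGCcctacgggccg
Uqcrc1, chr9:108936668-108936697, plus strand: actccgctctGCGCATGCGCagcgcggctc
Uqcr11, chr10:80406807-80406836, minus strand: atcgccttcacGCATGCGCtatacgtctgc
Cycs, chr6:50566611-50566640, minus strand: catgctagctcGCATGCGCgcgcacaaacc
Cox6a1, chr5:115349101-115349130, minus strand: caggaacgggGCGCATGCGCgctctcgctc
Atp5g2, chr15:102671070-102671099, minus strand: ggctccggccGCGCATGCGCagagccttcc
Atp5k, chr5:108434430-108434459, minus strand: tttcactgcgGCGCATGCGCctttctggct
Atp5l, chr9:44920963-44920992, minus strand: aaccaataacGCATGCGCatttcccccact

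Members with and without these letters were compared as a description. The median log2 fold change was 0.492 for the 8 members with them and 0.412 for the 26 without in the young MMP comparison, and -0.392 against -0.279 for old against young in MMP high HSCs. A match describes the letters in these windows and is not a measured binding site. Of the other motifs searched on both strands, the ETS letters CCGGAAG were in 32.4% of member promoters and 8.86% of all, and the letters AAGGTCA of oestrogen-related receptors were in 13.5% and 4.72%. CCAAT was in 54.1% and 37.4%, GGGCGG of SP1 was in 37.8% and 35.7%, and ATGGCGGC of YY1 was in 0% and 2.24%. Each motif was searched on its own, and a base can belong to matches of more than 1 motif.

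Complex II, succinate dehydrogenase, is both an enzyme of the citric acid cycle and an entry point of electrons. The groups compared overlapped: the mean log2 CPM over its 4 genes was 7.42 ± 0.16 (SD, n = 3) in Young MMP low, 7.61 ± 0.16 (n = 4) in Young MMP high, 7.25 ± 0.2 (n = 3) in Old MMP low and 7.42 ± 0.14 (n = 3) in Old MMP high. Median fold changes were 0.114 (young MMP), 0.137 (old MMP), -0.254 (MMP low age) and -0.226 (MMP high age) on the log2 scale. The young MMP median of complex II was 0.021 without Young MMP low 2 (2 of 4 genes above 0), 0.064 without Young MMP high 4, 0.209 without Young MMP high 1 and 0.239 without Young MMP low 1. Its MMP low age median was -0.133 without Young MMP low 1.

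Sdha, the flavoprotein that oxidises succinate, had the highest CPM of the complex. It was at 120, 228 and 277 CPM in Young MMP low 1 to 3, at 283, 252, 275 and 299 CPM in Young MMP high 1 to 4, at 121, 274 and 243 CPM in Old MMP low 1 to 3 and at 225, 310 and 312 CPM in Old MMP high 1 to 3. Young MMP low 1 and Old MMP low 1 lay far below every other library. For MMP high against low the log2 fold change was 0.41 ± 0.28 (SE; edgeR adjusted p = 0.549) in young and 0.41 ± 0.3 (adjusted p = 0.556) in old HSCs. Sdhd, a membrane anchor that binds ubiquinone, had the smallest p of all members for old against young in MMP low HSCs. Its levels were 282, 235 and 247 CPM in Young MMP low and 198, 196 and 233 CPM in Old MMP low, and these groups did not overlap (log2 fold change -0.29 ± 0.14, edgeR adjusted p = 0.724). Sdhc, the other anchor, was lowest in the complex at 49.6 to 111 CPM over all libraries, and the 4 groups overlapped. Sdhb, the iron-sulphur subunit, was at 239, 234, 239 and 307 CPM in Young MMP high and at 206, 228 and 200 CPM in Old MMP high (log2 fold change -0.27 ± 0.15, adjusted p = 0.715). Sdhb was named after its values were seen.

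Complex III, the cytochrome bc1 complex, takes electrons from ubiquinol to cytochrome c. Its mean log2 CPM over 9 genes was 7.21 ± 0.43 (SD, n = 3) in Young MMP low, 7.48 ± 0.06 (n = 4) in Young MMP high, 7.15 ± 0.15 (n = 3) in Old MMP low and 7.21 ± 0.29 (n = 3) in Old MMP high. By this mean all Young MMP high libraries (7.41 to 7.54) lay above all Old MMP high libraries (6.87 to 7.38), and the other groups compared overlapped. The median fold changes were 0.201, 0.094, -0.076 and -0.351 in the order used for complex II. Single libraries moved each of them. For young MMP the median of complex III was 0.488 when Young MMP low 1 was left out and 0.115 (5 of 9 genes above 0) when Young MMP low 2 was. The old MMP median was 0.243 without Old MMP high 2, 0.235 without Old MMP low 1, 0.053 without Old MMP high 1 and 0.052 without Old MMP low 3. For MMP low age the median turned to 0.225 (8 of 9 above 0) without Young MMP low 1, and was -0.176 without Young MMP low 2, -0.171 without Old MMP low 1, -0.044 without Old MMP low 2 and -0.021 without Old MMP low 3. The MMP high age median was -0.139 without Old MMP high 2 and -0.542 without Old MMP high 3. Within the L libraries MMP high was lower than MMP low in young HSCs by the complex mean (-0.2), and within the N libraries it was higher (0.52).

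Cyc1, the haem-bearing cytochrome c1, was higher in MMP high HSCs of both ages. It was at 220, 173 and 197 CPM in Young MMP low, at 247, 282, 229 and 263 CPM in Young MMP high, at 179, 174 and 207 CPM in Old MMP low and at 243, 276 and 251 CPM in Old MMP high. Neither pair of MMP groups overlapped, whereas old and young libraries of the same MMP class did. The log2 fold change was 0.37 ± 0.14 (SE; edgeR adjusted p = 0.21) in young and 0.46 ± 0.14 (adjusted p = 0.105) in old HSCs, so neither passed the threshold. Old against young gave 0.01 ± 0.13 in MMP high and -0.08 ± 0.14 in MMP low HSCs.

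Uqcr10, a small accessory subunit, had the highest fold change of any member in the young MMP comparison. Its levels were 116, 53.4 and 79.2 CPM in Young MMP low and 147, 152, 148 and 130 CPM in Young MMP high. The groups did not overlap, and the log2 fold change was 0.8 ± 0.28 (edgeR adjusted p = 0.196); without the filter on low counts it was 0.81 with an adjusted p of 0.0314. In old HSCs it was at 106, 84.3 and 79.1 CPM in MMP low and at 124, 65.2 and 150 CPM in MMP high, and these overlapped.

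Uqcrh and Uqcrb, a hinge protein and a ubiquinone-binding accessory subunit, were the members of smallest p in complex III for old against young in MMP high HSCs. Uqcrh was at 162, 142, 179 and 147 CPM in Young MMP high and at 128, 90.9 and 118 CPM in Old MMP high, with a log2 fold change of -0.49 ± 0.19 (edgeR adjusted p = 0.576). Uqcrb was at 143, 143, 166 and 141 CPM in Young MMP high and at 138, 66.3 and 98.5 CPM in Old MMP high (-0.55 ± 0.25, adjusted p = 0.645). Neither gene's groups overlapped, and Old MMP high 2 was the lowest library for both. Uqcrh was at 182, 120 and 137 CPM in Young MMP low and at 182, 166 and 121 CPM in Old MMP low. It had the smallest p of all members for the interaction (-0.58 ± 0.28, unadjusted p = 0.0567, adjusted p = 1).

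Uqcrc1, a core protein of the matrix arm, had the highest CPM of complex III, and 1 library stood far above the rest. It was at 803 CPM (6900 counts) in Young MMP low 1 and at 254 and 351 CPM in the other two. In the remaining groups it was at 298, 397, 273 and 470 CPM (Young MMP high), 364, 264 and 311 CPM (Old MMP low) and 395, 408 and 497 CPM (Old MMP high). The interaction of age and MMP was 0.85 ± 0.46 on the log2 scale (edgeR adjusted p = 1), and 0.2 without Young MMP low 1. Uqcrq, a ubiquinone-binding accessory subunit, was the lowest by CPM (52 to 105), and its groups overlapped in each comparison.

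Cytochrome c, encoded by Cycs, carries electrons from complex III to complex IV and also starts apoptosis when it leaves the mitochondrion. It was at 210, 144 and 130 CPM in Young MMP low, at 194, 225, 223 and 197 CPM in Young MMP high, at 120, 92.8 and 152 CPM in Old MMP low and at 165, 127 and 169 CPM in Old MMP high. All 4 Young MMP high libraries lay above the 3 Old MMP high libraries. For old against young the log2 fold change was -0.45 ± 0.2 (SE; edgeR unadjusted p = 0.0419, adjusted p = 0.642) in MMP high and -0.41 ± 0.21 (adjusted p = 0.748) in MMP low HSCs, where the groups overlapped. For MMP high against low it was 0.38 ± 0.2 (adjusted p = 0.411) in young and 0.34 ± 0.21 (adjusted p = 0.48) in old HSCs. The interaction was -0.04 ± 0.29.

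Complex IV, cytochrome c oxidase, passes electrons to oxygen; its catalytic subunits are encoded in mitochondrial DNA and were not seen. The 13 genes here are the nuclear subunits around that core. Their mean log2 CPM was 6.5 ± 0.48 (SD, n = 3) in Young MMP low, 6.88 ± 0.23 (n = 4) in Young MMP high, 6.56 ± 0.25 (n = 3) in Old MMP low and 6.46 ± 0.33 (n = 3) in Old MMP high. The median fold change was 0.456 in the young MMP comparison, the highest of the 4 complexes, with 11 of 13 genes above 0. In the old MMP comparison it was 0.021, with 7 of 13 above 0. For old against young it was 0.04 in MMP low HSCs, and -0.423 in MMP high HSCs with 13 of 13 genes below 0. All 13 were below 0 for the interaction too (median -0.428), and none passed an unadjusted p of 0.05 there.

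These values moved with a few libraries. Leaving out 1 library at a time, the old MMP median of complex IV ran from -0.103 (without Old MMP high 1) to 0.281 (without Old MMP high 2), and its MMP low age median from -0.182 (without Young MMP low 2) to 0.352 (without Young MMP low 1), so neither had a fixed sign. The young MMP median ran from 0.207 to 0.843, without the same 2 Young MMP low libraries. With Old MMP high 2 left out, the MMP high age median was -0.279 (12 of 13 below 0) and the interaction median -0.267 (12 of 13 below 0). With Young MMP low 2 and Old MMP high 2 left out, a choice made after the data were seen, the complex IV medians were 0.208 (young MMP), 0.28 (old MMP), -0.234 (MMP low age), -0.28 (MMP high age) and -0.056 (interaction, 8 of 13 below 0). With Young MMP high 4 and Young MMP low 1 left out they were 0.948, 0.042, 0.352, -0.553 and -0.959. The interaction was near 0 in the one case and farther from 0 than with all libraries in the other.

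Where complex IV subunits have tissue isoforms, the widely expressed form had the higher level per length. Per kilobase of annotated transcript, Cox4i1 stood at 621 CPM and Cox4i2, the form known from lung, at 3.5 CPM. Cox6b1 was at 436 CPM per kilobase and Cox6b2, known from testis, at 46. Cox6a1 (346), Cox7a2 (183) and Cox8a (572) had counts of 660 or more in every library, while Cox6a2, Cox7a1, Cox8b and Cox8c, known mostly from heart, muscle or testis, never had more than 15.

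Cox4i1, the most abundant complex IV gene by CPM, was at 561, 419 and 397 CPM in Young MMP low, at 494, 536, 597 and 425 CPM in Young MMP high, at 547, 481 and 380 CPM in Old MMP low and at 435, 408 and 415 CPM in Old MMP high. Its groups overlapped in every comparison, and its log2 fold changes ran from -0.29 to 0.16. Cox4i2 had 14 to 44 counts a library. It was at 2.6, 2.4 and 3.57 CPM in Old MMP low and at 1.38, 1.56 and 1.69 CPM in Old MMP high, which did not overlap, with a log2 fold change of -0.88 ± 0.56 (SE; edgeR adjusted p = 0.477).

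Cox7a2l, known as a factor of respiratory supercomplexes, went the other way from most members in the MMP comparisons. It was at 138, 126 and 138 CPM in Young MMP low, at 110, 114, 125 and 117 CPM in Young MMP high, at 170, 152 and 124 CPM in Old MMP low and at 103, 118 and 78.4 CPM in Old MMP high. All MMP high libraries lay below all MMP low libraries of the same age, in young by a narrow margin. The log2 fold change was -0.2 ± 0.16 (SE; edgeR adjusted p = 0.612) in young and -0.58 ± 0.17 in old HSCs. The old value had an adjusted p of 0.087, the lowest of any member in any comparison, and 0.0219 with DESeq2. Over all edgeR fits that left out 1 library, the old fold change of Cox7a2l ran from -0.69 to -0.41 (adjusted p from 0.0565 to 0.433). Its difference between the ages was -0.37 ± 0.24 (interaction, unadjusted p = 0.134).

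Cox5b, Cox6a1 and Cox8a shared 1 pattern, high in most Young MMP high libraries and low in Young MMP low 2 and Old MMP high 2. Cox5b, a zinc-binding subunit, was at 197, 117 and 144 CPM in Young MMP low, at 249, 247, 224 and 179 CPM in Young MMP high, at 186, 143 and 121 CPM in Old MMP low and at 189, 110 and 181 CPM in Old MMP high. Cox8a, the smallest of these proteins, was at 372, 178 and 248 CPM in Young MMP low, at 435, 444, 414 and 290 CPM in Young MMP high, at 354, 264 and 219 CPM in Old MMP low and at 334, 201 and 341 CPM in Old MMP high. The young MMP groups of both genes overlapped, since Young MMP low 1 lay above Young MMP high 4. The old MMP groups of both overlapped as well, with Old MMP high 2 below all Old MMP low libraries. For MMP high against low in young HSCs the log2 fold change was 0.56 ± 0.23 (SE; edgeR adjusted p = 0.281) for Cox5b, 0.56 ± 0.24 (adjusted p = 0.294) for Cox6a1 and 0.57 ± 0.27 (adjusted p = 0.34) for Cox8a. In old HSCs these genes had values of 0.02 to 0.09.

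Complex V makes ATP in its matrix head, driven by the membrane-embedded ring of c subunits, which turns as protons pass. The mean log2 CPM over its 16 genes was 7.46 ± 0.37 (SD, n = 3) in Young MMP low, 7.81 ± 0.1 (n = 4) in Young MMP high, 7.37 ± 0.18 (n = 3) in Old MMP low and 7.54 ± 0.2 (n = 3) in Old MMP high. Fold changes lay above 0 for 15 of 16 genes in the young and 13 of 16 in the old MMP comparison (medians 0.309 and 0.235). For old against young 14 of 16 were below 0 in each MMP class (medians -0.134 for MMP low, -0.236 for MMP high). In MMP low HSCs this direction rested on Young MMP low 1: with it left out, the median of complex V was 0.086 and 10 of 16 genes were above 0. That median was -0.267 without Young MMP low 2, -0.253 without Old MMP low 1 and -0.071 without Old MMP low 2. Leaving out Young MMP low 1 gave a young MMP median of 0.492 for complex V, and leaving out Young MMP low 2 gave 0.198. The old MMP median was 0.412 without Old MMP high 2, 0.154 without Old MMP low 3 and 0.128 without Old MMP low 2.

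By CPM, 2 head subunits were the most abundant, Atp5b (mean 1310 CPM) and Atp5a1 (937 CPM). Atp5b, the catalytic beta subunit, stood at 681 CPM per kilobase of transcript, the highest of all members. Atp5a1, the alpha subunit, stood at 364, beside Atp5j at 363. Per kilobase of coding sequence Atp5b was at 823 CPM, below Cox8a (1520), Uqcr11 (1180), Cox4i1 (925) and Atp5j (832). Atp5b was at 1400, 1080 and 1020 CPM in Young MMP low, at 1300, 1570, 1360 and 1460 CPM in Young MMP high, at 1150, 985 and 1130 CPM in Old MMP low and at 1420, 1680 and 1420 CPM in Old MMP high. The old groups did not overlap, and the young groups overlapped through Young MMP low 1. For MMP high against low the log2 fold change was 0.47 ± 0.15 (SE; edgeR adjusted p = 0.105) in old and 0.29 ± 0.14 (adjusted p = 0.364) in young HSCs. The old adjusted p was 0.0257 with DESeq2. Over all edgeR fits that left out 1 library it ran from 0.0436 to 0.334. The lowest value came without Young MMP low 1, which is not a library of the old groups. Atp5a1 was at 793, 703 and 831 CPM in Old MMP low and at 966, 1180 and 1030 CPM in Old MMP high, with no overlap (0.45 ± 0.16, adjusted p = 0.154). Its young groups, 1070, 786 and 975 CPM against 858, 969, 876 and 1140 CPM, overlapped (0.03 ± 0.15). The interaction for Atp5a1 was 0.42 ± 0.22 (unadjusted p = 0.073, adjusted p = 1).

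Atp5o, the stalk protein that holds the head to the membrane part, had the least spread within groups of any member (SD 0.109 on the log2 scale). It was at 223, 175 and 180 CPM in Young MMP low, at 231, 242, 236 and 260 CPM in Young MMP high, at 163, 155 and 165 CPM in Old MMP low and at 224, 203 and 210 CPM in Old MMP high. In each of the 4 comparisons its groups did not overlap. The log2 fold change was 0.33 ± 0.13 (SE; edgeR adjusted p = 0.24) for young MMP, 0.4 ± 0.14 (adjusted p = 0.137) for old MMP, -0.26 ± 0.14 (adjusted p = 0.746) for MMP low age and -0.19 ± 0.13 (adjusted p = 0.76) for MMP high age. With DESeq2 the old MMP value had an adjusted p of 0.0308. Atp5f1, subunit b of the same stalk, was at 325, 289 and 263 CPM in Young MMP low and at 276, 220 and 229 CPM in Old MMP low (-0.28 ± 0.14, edgeR adjusted p = 0.74), which overlapped. Exons of Atp5o and Atp5f1 overlap genes on the opposite strand in GENCODE M21, over 356 and 337 bases for the gene that overlaps most. Other members with such overlaps were Uqcrc2 (504), Atp5j (397), Cox5a (269), Cox6c (250), Cox4i1 (154), Atp5l (133), Atp5a1 (129), Atp5d (68) and Uqcrb (50). Atp5g2 overlaps Mir688 on the same strand over 75 bases. The strand setting of the counting is not given, so a part of the counts of all these members could belong to the neighbours.

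Subunit c of the ring is encoded by 3 genes, Atp5g1, Atp5g2 and Atp5g3, whose products differ in the import signal that is cut off. The last 78 codons of the 3 genes encode the same amino acids. Over these 234 bases, 63 positions do not agree in all 3 genes, and identity was 84.6% for Atp5g1 with Atp5g2, 78.6% for Atp5g1 with Atp5g3 and 77.4% for Atp5g2 with Atp5g3. The longest identical run in the coding sequence was 21, 11 and 8 bases in that order. A stretch of 120 bases is shown because it tells how far reads could part the 3 genes; capitals mark bases at which the genes do not all agree (GENCODE M21 transcripts, GRCm38, 5′ to 3′).
Atp5g1: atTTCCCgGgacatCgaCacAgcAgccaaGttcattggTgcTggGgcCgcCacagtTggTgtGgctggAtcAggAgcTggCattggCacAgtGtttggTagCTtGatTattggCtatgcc
Atp5g2: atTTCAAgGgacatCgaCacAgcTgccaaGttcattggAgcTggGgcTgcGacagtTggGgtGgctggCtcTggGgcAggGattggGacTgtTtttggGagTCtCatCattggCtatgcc
Atp5g3: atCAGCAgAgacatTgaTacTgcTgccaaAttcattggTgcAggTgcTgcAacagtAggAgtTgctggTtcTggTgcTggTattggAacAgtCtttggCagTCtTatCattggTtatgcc

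The 3 subunit c genes were among the members of smallest p in the young MMP comparison. Atp5g1 was at 300, 189 and 213 CPM in Young MMP low, at 349, 337, 333 and 293 CPM in Young MMP high, at 212, 189 and 182 CPM in Old MMP low and at 251, 201 and 248 CPM in Old MMP high. Atp5g2 was at 158, 108 and 115 CPM in Young MMP low, at 219, 220, 248 and 131 CPM in Young MMP high, at 133, 128 and 92.4 CPM in Old MMP low and at 170, 171 and 169 CPM in Old MMP high. Atp5g3 was at 226, 154 and 144 CPM in Young MMP low, at 267, 267, 274 and 197 CPM in Young MMP high, at 209, 154 and 148 CPM in Old MMP low and at 228, 212 and 212 CPM in Old MMP high. In each gene the young groups overlapped only because Young MMP low 1 lay above Young MMP high 4; the other 2 MMP low libraries lay below all 4 MMP high libraries.

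In young HSCs the log2 fold change for MMP high against low was 0.69 ± 0.22 (SE; edgeR adjusted p = 0.149) for Atp5g2, 0.53 ± 0.19 (adjusted p = 0.206) for Atp5g3 and 0.49 ± 0.16 (adjusted p = 0.183) for Atp5g1. Atp5g1 reached 0.76 without Young MMP low 1, with an adjusted p of 0.041, and Atp5g2 reached 0.87 without Young MMP high 4, with an adjusted p of 0.0407. With both left out the adjusted p was 0.0151 for Atp5g2 (1.1), 0.0228 for Atp5g3 (0.92), 0.0236 for Atp5g1 (0.82) and 0.0321 for Cox5a (0.91). The young groups of these genes overlapped through Young MMP low 1 and Young MMP high 4. Leaving out either or both had to widen the difference, so the smaller adjusted p-values are no separate evidence for it. Over all edgeR fits that left out 1 library, Atp5g1 ran from 0.36 to 0.76 (adjusted p from 0.041 to 0.385). Atp5g2 ran from 0.59 to 0.93 (adjusted p from 0.0407 to 0.326) and Atp5g3 from 0.4 to 0.81 (adjusted p from 0.065 to 0.458). In old HSCs the MMP groups did not overlap for Atp5g2 (0.53 ± 0.23, adjusted p = 0.248) and Atp5g3 (0.35 ± 0.2, adjusted p = 0.417), and overlapped for Atp5g1 (0.26 ± 0.17). Atp5g1 had the smallest p of all members for old against young in MMP high HSCs: all 3 old libraries lay below all 4 young ones, and the log2 fold change was -0.49 ± 0.16 (unadjusted p = 0.00982, adjusted p = 0.464).

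**Figure D3:**
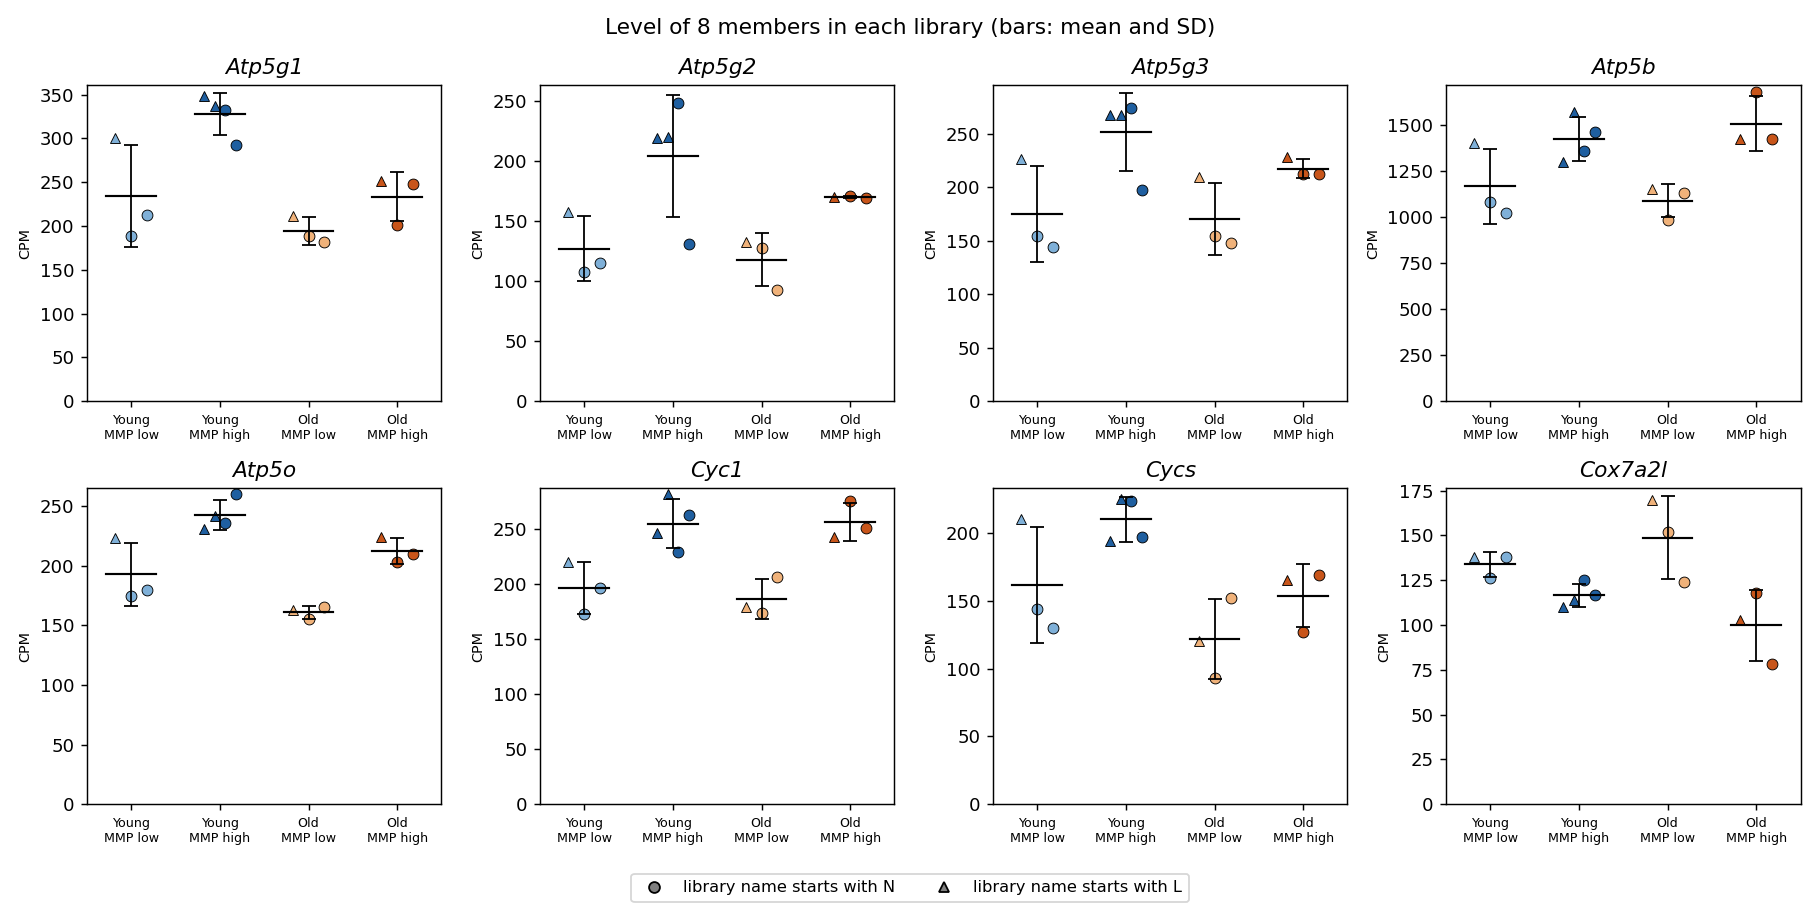
CPM (vertical axis from 0) of 8 members in each library of the 4 groups, with bars for the mean and SD, triangles for library names that start with L and circles for N. Atp5o and Cyc1 are higher, and Cox7a2l is lower, in all MMP high than in all MMP low libraries of the same age. For Atp5g1, Atp5g2 and Atp5g3 the Young MMP low library that reaches the Young MMP high range is Young MMP low 1. Old MMP low 1 reaches it too for Atp5g2 (133 CPM) and Atp5g3 (209 CPM).

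The lowest complex V gene was Atp5s, at 14.7 CPM per kilobase of transcript. It was at 26.3, 31.8 and 24.7 CPM in Old MMP low and at 24.5, 17.9 and 14.3 CPM in Old MMP high, with a narrow gap between the groups (-0.54 ± 0.3, edgeR adjusted p = 0.394). Young MMP low (34.6, 25 and 17.6 CPM) and Young MMP high (16.2, 24.4, 21.1 and 16.5 CPM) overlapped. The 4 members with a fold change below 0 in the young MMP comparison were Cox7a2l, Atp5s, Uqcrc1 and the low-count Cox4i2.

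Within groups, members with short coding sequences varied more between libraries than those with long ones. The members were split at their median coding length of 408 bases, a split chosen after the data were seen, and Atp5g1 at the median belongs to neither side. The median within-group SD of log2 CPM was 0.415 for the 21 shorter and 0.216 for the 21 longer members. Values were then taken as the deviation of each gene's log2 CPM from its own mean over the 13 libraries. In Young MMP low 2 the shorter members deviated by -0.69 on average and the longer ones by -0.21. In Old MMP high 2 they deviated by -0.7 and 0.02. In Young MMP high 1 the order was the other way round, with 0.38 for the shorter and 0.06 for the longer, as it was in Old MMP low 1 with 0.18 and -0.11.

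Across the 43 members, the Pearson correlation of log2 coding length with this deviation was 0.67 in Young MMP low 2 and 0.83 in Old MMP high 2. It was from -0.29 to -0.63 in Young MMP low 1, Young MMP high 1 to 3, Old MMP low 1 and Old MMP high 1, and from -0.14 to 0.3 in the other 5. These are descriptions across genes of 1 library, which share its preparation and are no replicates. Atp5k, a short subunit with 213 coding bases, was at 9.05 CPM in Young MMP low 2 and 11.5 CPM in Old MMP high 2 against 14 to 56.7 CPM elsewhere. Uqcr11, with 168 coding bases, was at 92.1 and 86.5 CPM in these libraries against 140 to 260 CPM elsewhere.

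**Figure D4:**
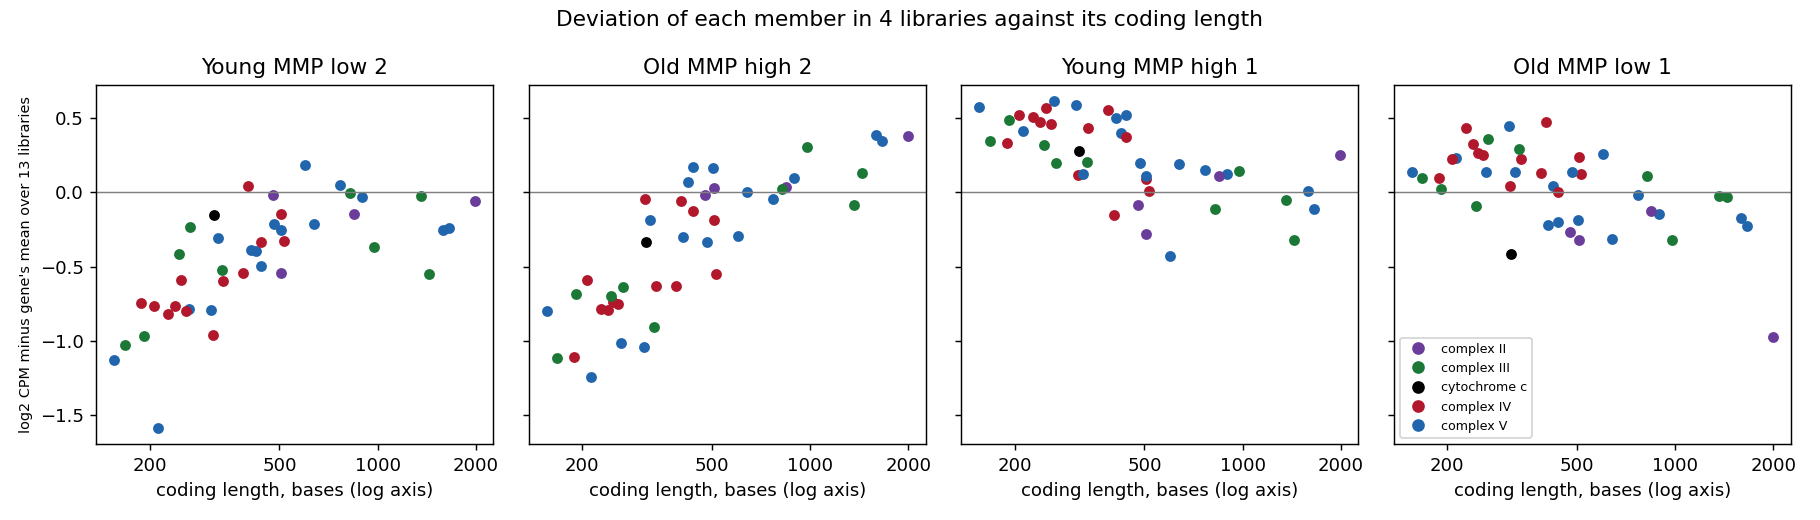
Deviation of each member's log2 CPM from its own mean over 13 libraries (vertical axis) against its coding length in bases (horizontal log axis) in 4 libraries, with colours for the complex. On average, short members lie below long ones in Young MMP low 2 and Old MMP high 2 (Pearson correlations 0.67 and 0.83). Short members lie above long ones in Young MMP high 1 and Old MMP low 1 (-0.63 and -0.57).

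Genes outside the members with short coding sequences did not all do the same. The 82 cytosolic ribosomal protein genes, mostly short, deviated by -0.43 in Young MMP low 2 and -0.52 in Old MMP high 2, and the 37 complex I subunits by -0.35 and -0.48. The 649 other tested genes with a coding length under the members' median deviated by -0.06 and -0.34, and the 12005 above it by 0.16 and 0.06. The shorter and longer members also differed in the comparisons. All 21 shorter members were below 0 for the interaction of age and MMP (median -0.428), as were 12 of 21 longer members (median -0.01). For MMP high against low in old HSCs the longer members had a median of 0.167 (17 of 21 above 0) and the shorter ones 0.025 (12 of 21). For old against young in MMP high HSCs the medians were -0.423 and -0.202 for shorter and longer members. Because Young MMP low 2 and Old MMP high 2 each make up 1 of 3 libraries in their group, length and group cannot be told apart for the shorter members; the part of RNA quality or library preparation was not tested.

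**Figure D5:**
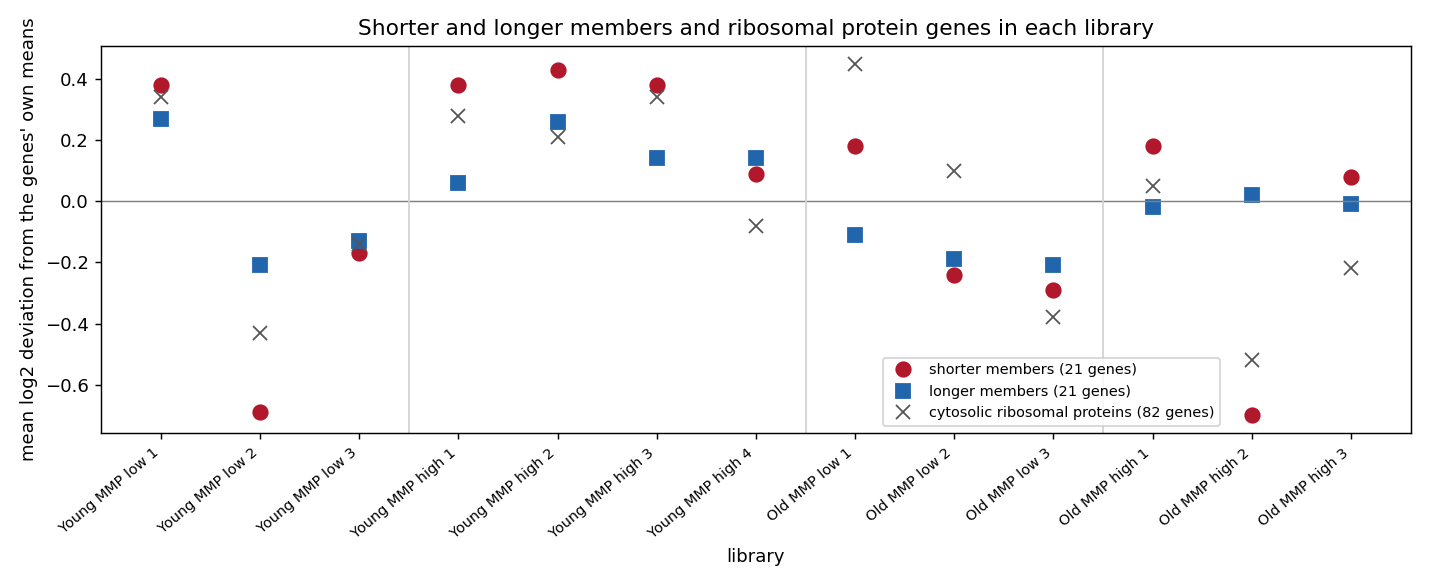
Mean log2 deviation (vertical axis) of the 21 shorter members, the 21 longer members and the 82 cytosolic ribosomal protein genes from the genes' own means in each of the 13 libraries (horizontal axis, grouped by vertical lines). The shorter members lie at -0.69 in Young MMP low 2 and -0.7 in Old MMP high 2, while the longer members stay between -0.21 and 0.27 in all libraries.

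Differences between complexes within a library remove what moves all members alike, but not what moves short and long members apart. Complex IV minus complex V by mean log2 CPM was -0.96 ± 0.11 (SD, n = 3) in Young MMP low, -0.93 ± 0.14 (n = 4) in Young MMP high, -0.81 ± 0.09 (n = 3) in Old MMP low and -1.08 ± 0.13 (n = 3) in Old MMP high. The old groups did not overlap (-0.73 to -0.9 against -1 to -1.23), and the young groups did. Of the complex IV members 10 of 13 are among the shorter ones, against 5 of 16 in complex V, so the shift with coding length stays in this difference, and its lowest value was that of Old MMP high 2. All 4 complex II members are among the longer ones. Complex IV minus complex II ran from -0.18 to -1.46, complex III minus complex II from -0.68 to 0.31 and complex V minus complex II from -0.23 to 0.55, and all 4 groups overlapped in each. The highest complex III minus complex II values, 0.31, 0.23 and 0.1, were those of Old MMP low 1, then Young MMP low 1, then Old MMP high 1, all from the L libraries.

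Few genes of related mitochondrial lists were called, as was so for all genes tested. The shares of all genes called were 0.993% (young MMP), 3.66% (old MMP), 0.175% (MMP low age) and 0.146% (MMP high age). Few calls in such short lists are therefore no result about these lists. Of all genes, 49.1% were above 0 for young MMP, 44.9% for old MMP and 50.1% for MMP high age. Of 37 complex I subunits, which feed in electrons from NADH, 0 passed an adjusted p of 0.05 in any comparison (edgeR); 34 were above 0 in the young MMP comparison and 37 of 37 below 0 for old against young in MMP high HSCs. Of 36 assembly and regulatory factors of complexes II to V, 0 passed, with 24 above 0 in the young MMP comparison and 30 below 0 in the MMP high age comparison. Of 13 regulators of mitochondrial biogenesis, 0 passed. Among 17 citric acid cycle genes Idh2, the mitochondrial isocitrate dehydrogenase that uses NADP, rose in old MMP high HSCs (log2 fold change 0.72 ± 0.15, adjusted p = 0.0137). Among 77 mitochondrial ribosomal proteins Mrpl12 rose in the same comparison (0.68 ± 0.16, adjusted p = 0.0345). Of 26 replication and mitosis genes, 7 rose with MMP in young and 19 in old HSCs, and 26 of 26 were above 0 in both; Mcm6, part of the helicase that opens DNA for replication, rose by 0.68 ± 0.14 and 1.43 ± 0.15 on the log2 scale. The members' values moved beside these, and the part of cycling cells in them was not tested.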

How the data were processed

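RNA of 13 libraries was counted per gene symbol. The deposited files hold raw counts made by the authors, whole numbers for 43280 symbols a library. Per the submitters' processing notes, Trim Galore, STAR 2.7 and GRCm38 were used. Which tool and annotation gave the counts, and whether strand was used, is not given in the sources used here. In each library, even numbers made up 51.2% to 53.8% of counts from 1 to 100, so a count may not be 1 fragment. Per the labels' protocols, Nextera XT was run in reduced volumes.

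Genes with few counts were removed by filterByExpr (minimum count 10, minimum total 15). The 17125 genes left were scaled by TMM and fitted in edgeR 4.0.16 (R 4.3.3) with glmQLFit (robust) and glmQLFTest, with the 4 group means as coefficients and 9 residual degrees of freedom; edgeR's common biological variation (BCV) was 0.413. Tests were two-sided, and a gene was called at a Benjamini-Hochberg adjusted p of 0.05 over all genes tested. CPM values of the members use TMM-scaled library sizes, and log2 CPM uses a prior count of 2. The summed marker levels are CPM of the total counts, without TMM scaling. The test was checked on simulated data. Gene positions, coding lengths (the longest coding sequence) and transcript lengths (the median) are from GENCODE M21, and promoters are from RefSeq on GRCm38.p6.

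Members and gene lists were chosen with earlier results of these data known. Members named in full are the 5 of smallest p in each group comparison, the 3 of smallest p for the interaction, the highest and lowest by CPM in each complex, and isoform families; others named were chosen after their values were seen. Residuals of libraries with the same replicate number correlated by 0.291, 0.271 and 0.136 in the old MMP groups, so by the criterion used (each above 0.1) these numbers may pair libraries. They correlated by -0.0312, -0.153 and -0.227 in the young MMP groups, by 0.284, -0.0728 and 0.0338 in MMP low and by 0.286, 0.0665 and -0.0116 in MMP high across ages. Alternatives were RLE size factors, no filter, 10 or more counts in at least 3 libraries, DESeq2 1.42.0, the library-name set as a term, a replicate block, a fit of the groups compared only, and leaving out libraries.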

Additional observations from a re-analysis of the deposited data

Results flagged for a closer look

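In Young MMP high, the group with 4 libraries, 4 of 31 values checked had a library far from the others by Dixon's criterion; chance flags about 1 in 20. Atp5g3 (7.62 against 8.06 to 8.1 log2 CPM), Cox7a2 (6.67 against 7.35 to 7.41) and Cox8a (8.18 against 8.69 to 8.79) were low in Young MMP high 4. Uqcrb was high in Young MMP high 3 (7.38 against 7.14 to 7.16). Groups of 3 were not tested in this way.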

How the results depend on the processing

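Counts of members called stayed at 0 under RLE size factors, the count minimum, the library-name set as a term, the fit of the groups compared only and the replicate block. Members called in young MMP became 1 with no filter and 4 when Young MMP high 4 and Young MMP low 1 were left out. Those 4 were Atp5g1, Atp5g2, Atp5g3 and Cox5a, whose young groups overlapped through the libraries left out. In old MMP the members called became 4 with DESeq2 and 1 without that pair. Leaving out 1 library each time gave 0 to 1 members in both MMP comparisons and 0 to 0 in the others. The median SE of 0.22 to 0.23 on the log2 scale and 3 or 4 libraries a group limit what could be called.

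All genes called were 756 (young MMP), 1190 (old MMP), 204 (MMP low age), 211 (MMP high age) and 58 (interaction) with no filter, and 796, 1330, 197, 154 and 2 with DESeq2. With a replicate block the young MMP count was 98, and no other call or count moved by over 1.5 times. The fit of the young groups only called 0. With Young MMP high 4 and Young MMP low 1 left out, the MMP counts were 369 (young) and 1008 (old). With Old MMP high 2 and Young MMP low 2 left out, chosen after seeing the data, the counts were 79, 254, 7 and 9 in the 4 group comparisons. Leaving out 1 library gave 11 to 275, 223 to 818, 10 to 46 and 9 to 40 genes, and 0 to 0 for the interaction; the fewest came without Young MMP low 3, Old MMP high 3, Old MMP low 2, and Old MMP high 2 or 3, in that order, and the most without Young MMP high 4, Young MMP low 1, Young MMP high 4 and Young MMP low 3.

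Members' medians ran from 0.177 to 0.514 (young MMP), 0.011 to 0.281 (old MMP), -0.216 to 0.206 (MMP low age), -0.396 to -0.208 (MMP high age) and -0.453 to -0.063 (interaction) when 1 library was left out. With Young MMP high 4 and Young MMP low 1 left out, the MMP low age median was 0.205 and the interaction median -0.551, and without Young MMP low 2 and Old MMP high 2 the interaction median was 0.075. The cause of these shifts was not tested.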
